A study of Gossypium hirsutum with 6 samples.

Results

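Of the 100562 genes listed in an RNA-seq of cultured cotton ovules, 12 are described as repetitive proline-rich cell wall proteins, and 6 of these are considered here. The 6 genes lie in a cluster of 4 on chromosome A02 and a cluster of 2 on chromosome D02 of upland cotton (*Gossypium hirsutum*), an allotetraploid whose chromosomes belong to an A or a D subgenome. They were chosen by their description and position, and at a time when their response to putrescine (Put) was already known. Their difference between the conditions is therefore given as a description without a test. RNA was sequenced from 3 samples of wild-type ZM24 ovules cultured in the dark for 2 d with 10 μmol/L Put, a diamine, and from 3 samples cultured with water (CK). Ovules were collected on the day of flowering, and the study states that samples were divided at random into replicates. No source says that the replicates came from separate plants or cultures, so p-values measure only the spread between these samples. Whole ovules were used, with the fiber cells of their epidermis among the other cells, and fewer cells of a type and less RNA per cell cannot be told apart in such samples.

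Proline-rich proteins are structural proteins of the plant cell wall that consist largely of short repeats rich in proline. They are secreted, part of their proline is hydroxylated on the way by prolyl 4-hydroxylases, and in legumes some of them become insoluble in the wall when peroxidases link their tyrosines. A cotton fiber is a single cell of the ovule epidermis, and its primary wall has to yield and be supplied with new material while the cell elongates. The files describe the 6 genes only by this protein class, and no separate role of any of them is given.

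The 6 samples held between 16974557 and 18454734 counted read pairs with Put and between 19131678 and 19463059 with CK. Genes of ovule identity were detected, with 440 to 450 CPM (counts scaled to library size) with Put and 403 to 407 CPM with CK summed over 4 *AGL11* genes, of which 3 were higher and 0 lower. The 6 genes of the factor ANT, which promotes ovule growth in *Arabidopsis*, were all lower and summed to between 40.7 and 42.6 CPM with Put and to between 77.4 and 84.2 CPM with CK. In contrast, 2 genes described as axial regulator YABBY 4 had 0 counts in every sample. The 26 ovule and seed coat markers are these genes and those described as anthocyanidin reductase. Of the 26, 18 were tested, with 5 higher and 11 lower with Put. Over all tested genes, 36.6% were called in edgeR at an adjusted p under 0.05, with 18.4% higher and 18.2% lower. The sum over the 26 markers was between 2834 and 2897 CPM with Put and between 2935 and 2971 CPM with CK. Most of this sum came from the anthocyanidin reductase genes. The 6 genes of the fiber protein E6 summed to between 6032 and 6170 CPM with Put, against 1286 to 1338 CPM with CK, with 4 of them higher and 2 lower. Markers of anther and pollen summed to between 69.1 and 73.0 CPM in Put and to between 61.4 and 65.0 CPM in CK. Of these 36 genes 8 were tested, with 3 higher and 1 lower, and 19 had 0 counts. Markers of photosynthetic tissue summed to between 196 and 203 CPM in Put and to between 238 and 241 CPM in CK. Of these 57 genes 37 were tested, with 1 higher and 13 lower, and 8 had 0 counts. The part of these cell type markers in the results that follow was not tested.

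Summed over the 6 genes, the level was nearly the same with and without Put, but a different gene made up most of it. Levels are compared between genes as FPKM, the number of fragments scaled to gene length and to library size, as deposited. The FPKM of the 6 genes summed to 3584, 3629 and 3532 with Put and to 3362, 3384 and 3352 with CK. The sum was 1.06 times as high with Put, and the conditions did not overlap. LOC107936249 on A02 made up 71.9% ± 0.503 of the summed FPKM with Put and 23.5% ± 0.554 with CK (SD, n = 3 each). LOC107936247 on D02 made up 17.9% ± 0.312 with Put and 52.5% ± 0.422 with CK. The remaining 4 genes took 10.3% ± 0.375 with Put and 24.0% ± 0.139 with CK. As a share of all read pairs counted, the 6 genes held 0.394% to 0.405% with Put and 0.336% to 0.342% with CK.

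**Figure D1:**
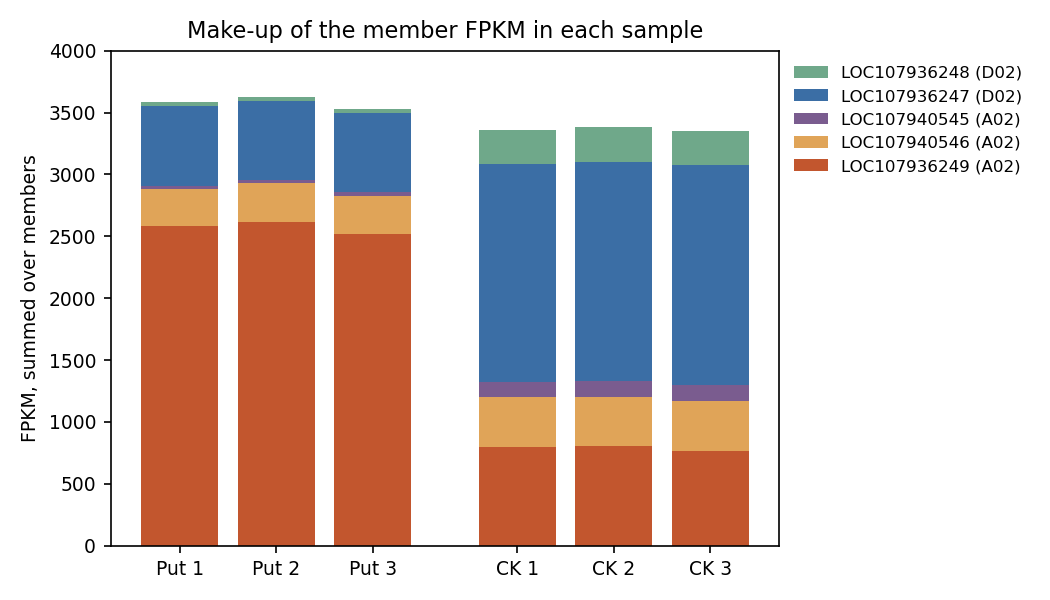
FPKM of the repetitive proline-rich cell wall protein genes stacked for each Put and CK sample (y axis, FPKM summed over 5 genes, LOC107940537 being too low to be drawn). The columns reach 3532 to 3629 with Put and 3352 to 3384 with CK, while LOC107936249 at the base fills most of each Put column and LOC107936247 most of each CK column.

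LOC107936249 was the single gene of the clusters that was higher with Put. It lies on A02 from 5049384 to 5050574 on the minus strand, in the coordinates of Gossypium_hirsutum_v2.1, and is described as repetitive proline-rich cell wall protein 1-like. Its FPKM was 2587, 2617 and 2518 in the Put samples, against 796, 807 and 765 in the CK samples. Every Put value was more than 3 times as high as any CK value. In counts these were 56511, 52759 and 51523 read pairs with Put and 18373, 18999 and 17622 with CK. The log2 fold change of Put over CK was 1.71 (standard error 0.016, edgeR). By mean FPKM the gene ranked 7 of all listed genes with Put and 22 with CK, and 696 of the 51764 tested genes had a larger log2 fold change.

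LOC107936247 on D02, from 5744269 to 5745202 on the minus strand, was the most abundant of the 6 genes with water. It is described as repetitive proline-rich cell wall protein. Its FPKM was 643, 636 and 640 with Put and 1763, 1766 and 1777 with CK, a log2 fold change of -1.47 (standard error 0.017, edgeR). The replicates had coefficients of variation of the CPM of 0.618% with Put and 0.336% with CK, against 0.978% and 0.557% from counting alone. A spread below that of counting in 3 samples is not read as a property of the gene. Its rank by mean FPKM was 36 with Put and 6 with CK. The gene was thus 2.76-fold lower with Put, while LOC107936249 was 3.26-fold higher.

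The lowest ratio to water was found for LOC107936248, the neighbour of LOC107936247 on D02 (5732324 to 5733250, minus strand). It had 564, 545 and 558 read pairs with Put, against 4998, 5227 and 4940 with CK. The FPKM was 34.3 ± 0.999 with Put and 280 ± 5.13 with CK (SD, n = 3 each), so that the gene was 8.14-fold lower. Its log2 fold change of -3.03 (standard error 0.038, edgeR) was undercut by 55 of the tested genes. By mean FPKM the gene ranked 3243 with Put and 108 with CK.

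On A02, LOC107940545 (5072352 to 5073370, minus strand) is the neighbour of LOC107936249 and differed in the opposite direction. It had 455, 482 and 496 read pairs with Put and 2430, 2552 and 2511 with CK. Its FPKM of 26.9 ± 2.20 with Put was 4.68-fold below the 126 ± 2.39 with CK (log2 fold change -2.23, standard error 0.048, edgeR). The spread between its Put samples was the widest among the 5 expressed genes, with a coefficient of variation of 8.18%, against 4.58% from counting alone. The next gene, LOC107940546 (5089570 to 5090483, minus strand), had the smallest difference. Its FPKM was 296, 314 and 311 with Put and 403, 398 and 407 with CK, a log2 fold change of -0.39 (standard error 0.025, edgeR) without overlap between the conditions.

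LOC107940537, at the far end of the A02 cluster (5138046 to 5139531, minus strand), was at the limit of detection. It had 3, 0 and 0 read pairs with Put and 1, 0 and 1 with CK. The floor set here, 3 read pairs, amounts to between 0.165 and 0.179 CPM with Put and between 0.153 and 0.156 CPM with CK. No fold change is given for this gene, which was removed by the filter for low counts. The other 5 genes were retained, and none of them overlapped between the conditions. The share of all tested genes without overlap was not computed. It is not the same measure as the 36.6% of tested genes called at an adjusted p under 0.05 in edgeR. As this contrast was known when the genes were chosen, nothing is read from the lack of overlap in the 5 genes.

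**Figure D2:**
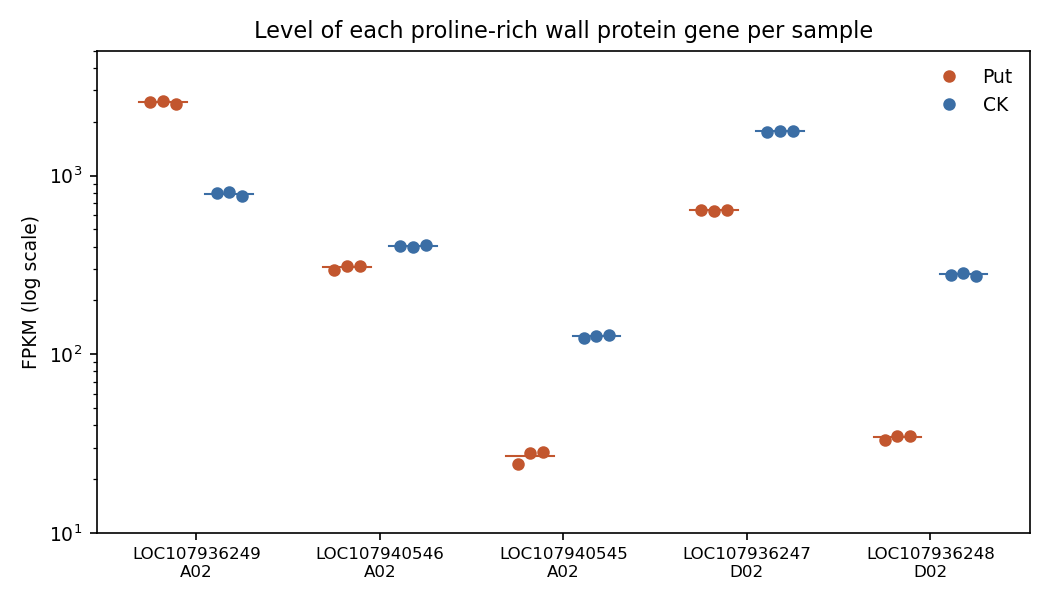
FPKM on a log axis for the 5 expressed genes of the clusters, with 1 point for each sample and a line at the mean of the 3 samples of a condition, Put left of CK. LOC107936249 lies at 2518 to 2617 with Put and at 765 to 807 with CK, and each of the other 4 genes is lower in all Put samples than in all CK samples.

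The order of the levels differed between the conditions only at the top. With Put it ran from LOC107936249 (2574 FPKM on average) to LOC107936247 (640), LOC107940546 (307), LOC107936248 (34.3), LOC107940545 (26.9) and LOC107940537. With CK it ran from LOC107936247 (1769) to LOC107936249 (789), LOC107940546 (403), LOC107936248 (280), LOC107940545 (126) and LOC107940537. The ranges of neighbours in these orders did not overlap over the 3 samples of a condition. The narrowest step with Put was between LOC107936248 and LOC107940545, a ratio of 1.28, and the narrowest step with CK was between LOC107940546 and LOC107936248, a ratio of 1.44. The span between the highest and the lowest of the 5 expressed genes was thus wider with Put.

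The 4 genes on A02 together had 81.1%, 81.5% and 80.9% of the summed FPKM with Put, against 39.3%, 39.4% and 38.8% with CK. The sum of the A02 genes was 2908 ± 50.5 FPKM with Put and 1318 ± 16.6 FPKM with CK (SD, n = 3 each). The sum of the D02 genes was 674 ± 3.23 FPKM with Put and 2048 ± 6.58 FPKM with CK. Without LOC107936249, the other 5 genes summed to 1008 ± 9.49 FPKM with Put and to 2577 ± 10.4 FPKM with CK, so that the higher level on A02 came from LOC107936249 alone. In CPM, which do not correct for the longer gene model of LOC107936249 (1191 bp, against 914 to 1019 bp for the other 4 expressed genes), the sum over all 6 was 1.20 times as high with Put.

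All 6 genes lie on the minus strand, and the annotated length of each equals its genomic span, so that none has an intron in its gene model. Among the tested protein-coding genes 10.7% have such a model. No protein domain is listed for any of the 6. The A02 cluster spans 90148 bp, with gaps of 21777, 16199 and 47562 bp between its genes, and LOC107936248 and LOC107936247 are 11018 bp apart. On D02, a further gene of the same description, LOC121203085, ends 8382 bp before LOC107936248 begins and is not among the 6. It too has a single exon and the minus strand.

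The 2 clusters are flanked by genes of the same kinds in the same order, with some further genes between them. A gene described as ethylene-response factor C3-like stands before each, and a pseudogene, a serine/threonine-protein phosphatase PP1, a cryptochrome-1 and an EAF6 gene stand behind. By this order LOC107936249 faces LOC121203085, LOC107940545 faces LOC107936248 and LOC107940546 faces LOC107936247, and LOC107940537 faces no gene on D02. These pairs were set by position after the values had been seen, and not by sequence. The program that counted the reads is not given in the sources used here, nor is the treatment of reads that match several copies, so counts may have been exchanged between close copies.

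In each of the 3 pairs the level of the A02 gene relative to the D02 gene was higher with Put. LOC107936249 over LOC121203085 had a log2 ratio of FPKM of 8.87 ± 0.363 with Put and 6.45 ± 0.143 with CK (SD, n = 3 each), with the D02 gene at 86, 121 and 124 read pairs in Put and at 184, 201 and 214 in CK. LOC107940545 over LOC107936248 had -0.36 ± 0.079 with Put and -1.15 ± 0.035 with CK. LOC107940546 over LOC107936247 had -1.06 ± 0.053 with Put and -2.14 ± 0.013 with CK. The difference between Put and CK in this log2 ratio was 2.42, 0.80 and 1.08 in the 3 pairs. In the 5 flanking pairs it was 0.21 for the ethylene-response factors, -0.23 for the pseudogenes, -0.07 for PP1, -0.12 for cryptochrome-1 and 0.08 for EAF6. The log2 ratio of the ethylene-response factors was -0.51 ± 0.233 with Put and -0.72 ± 0.088 with CK. That of the pseudogenes was 2.34 ± 0.023 with Put and 2.57 ± 0.028 with CK. The cryptochrome-1 and EAF6 pairs were added after their values were seen. The differences of all pairs come from the contrast that was known beforehand and carry no test.

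**Figure D3:**
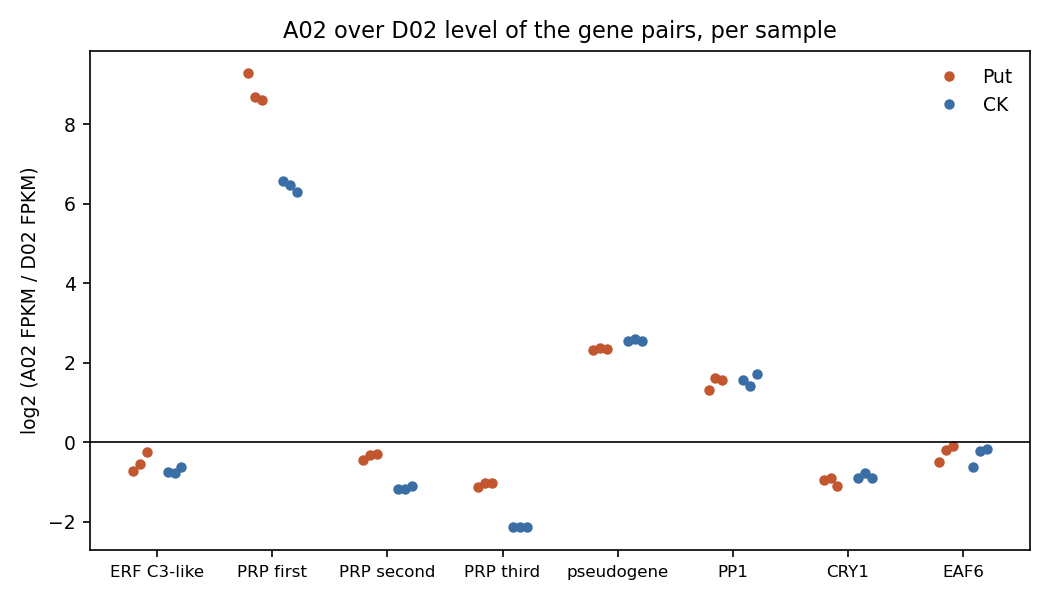
Log2 ratio of the FPKM of the A02 gene over the D02 gene for 8 gene pairs in their order along the chromosomes, with 1 point for each sample, Put left of CK, and PRP for the proline-rich protein genes. In the 3 PRP pairs the Put samples lie above the CK samples by 2.42, 0.80 and 1.08 on average, while the 5 flanking pairs differ by between -0.23 and 0.21.

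Next, the neighbours of the clusters were compared between the conditions with edgeR's quasi-likelihood test, in which 18.4% of all tested genes were higher and 18.2% lower with Put. The pseudogenes behind the clusters, for which the files give no description, were among the most abundant transcripts of the region. LOC107940532 on A02 had 1300 FPKM with Put and 1958 FPKM with CK on average, which with CK was above the level of each of the 6 wall protein genes. It fell by 0.59 on the log2 scale (standard error 0.016, adjusted p = 4.59e-36). LOC107936219 on D02 fell by 0.36 (adjusted p = 3.07e-17) to 258 FPKM with Put, against 331 FPKM with CK. The PP1 phosphatase genes next to them were lower on both chromosomes, LOC107940543 with a log2 fold change of -0.74 (adjusted p = 9.35e-08) and LOC107936246 with -0.68 (adjusted p = 0.00203).

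Before the clusters, neither gene of ethylene-response factor C3-like, a transcription factor with an AP2 domain, passed the test. LOC107942596 on A02 had 3.84 ± 0.087 CPM with Put and 3.34 ± 0.186 CPM with CK (SD, n = 3 each, adjusted p = 0.412, edgeR). LOC107936230 on D02 had 5.11 ± 0.871 CPM with Put and 5.09 ± 0.389 CPM with CK (adjusted p = 0.975). Of the non-coding neighbours on A02, LOC107940536 did not pass (log2 fold change 0.57, adjusted p = 0.161), and LOC121214877 was higher at 1.78 ± 0.376 CPM with Put, against 1.01 ± 0.181 CPM with CK (adjusted p = 0.0298). The call of LOC121214877 was lost without Put replicate 1 or 2 or without CK replicate 2 or 3, with adjusted p up to 0.125, and with DESeq2's test (adjusted p = 0.0706). LOC107944240, LOC107940538, LOC107936239 and LOC107936245 were too low to be tested, with at most 12 read pairs in any sample. LOC121214877 was thus the only neighbour tested that was called higher with Put.

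**Figure D4:**
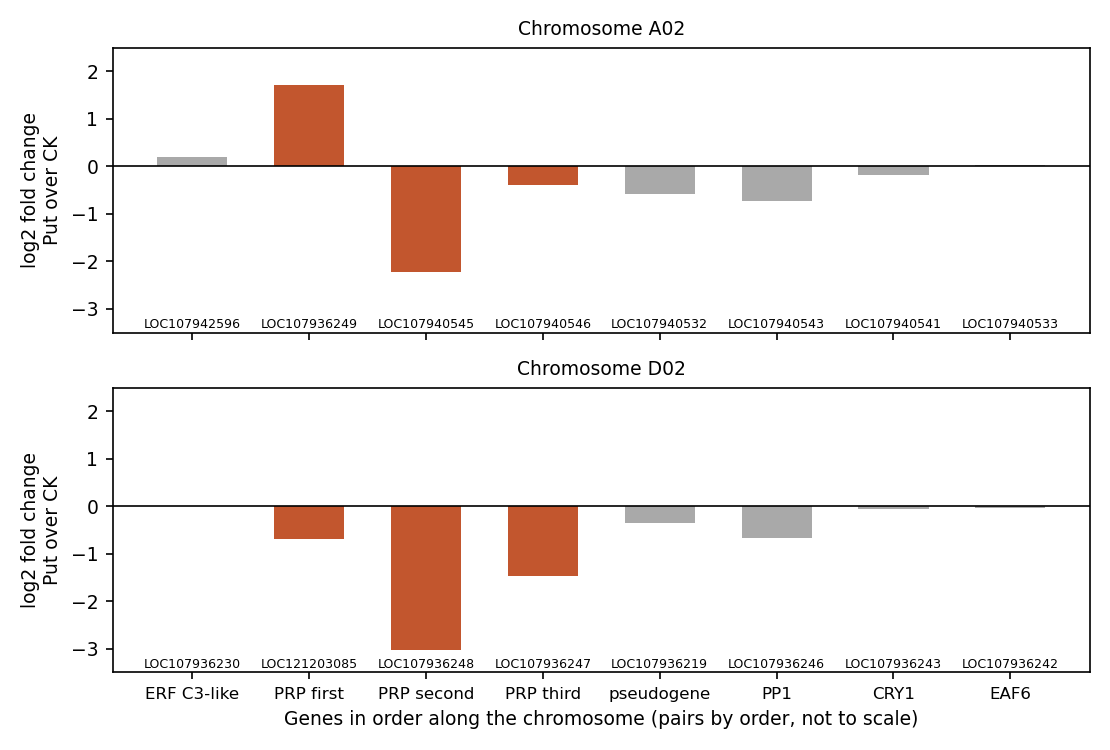
Log2 fold change of Put over CK (bars, from 0) for the genes of both regions in their order along A02 and D02, with the proline-rich protein genes (PRP, including LOC121203085 and without LOC107940537) coloured and the flanking genes in grey, not to scale along the x axis. LOC107936249 reaches 1.71 on A02, whereas the other 5 coloured bars lie between -3.03 and -0.39.

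In the files, 12 genes carry the description of repetitive proline-rich cell wall proteins, and the 6 outside the set comprise LOC121203085 and 5 genes on other chromosomes. All 6 were tested, with 2 higher and 3 lower. LOC121203085 fell by 0.69 on the log2 scale (standard error 0.13, adjusted p = 2.05e-05, edgeR) and is the only one of the 6 beside a cluster. LOC107937311 on D07, which lists a hydrophobic seed protein domain, fell to 215 ± 4.92 CPM with Put, against 294 ± 6.11 CPM with CK (adjusted p = 7.69e-21). LOC107897064 on A10 fell to 49.8 ± 0.63 CPM with Put, against 75.1 ± 3.59 CPM with CK (adjusted p = 6.79e-16). LOC107914906 on D10, with 6 to 9 read pairs in Put and 14 to 18 in CK, did not pass (adjusted p = 0.0605).

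The 2 genes that rose, LOC107909209 on D08 and LOC121204755 on A08, both have the hydrophobic seed protein domain and more than 1 exon. LOC107909209 had 14.8 ± 1.52 CPM with Put and 5.42 ± 0.825 CPM with CK (SD, n = 3 each), a log2 fold change of 1.45 (adjusted p = 5.87e-15, edgeR). LOC121204755 had only 24, 13 and 15 read pairs with Put and 2, 4 and 8 with CK, a log2 fold change of 2.02 (adjusted p = 7.26e-04) that was 2.64 without CK replicate 3. Over all 12 genes the summed FPKM was 3789 ± 51.8 with Put and 3653 ± 13.1 with CK.

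The other genes of the path to a proline-rich wall were then counted by lists of descriptions, from the wall proteins to the enzymes that modify them. Beside each list stand the 36.6% called over all tested genes, 18.4% higher and 18.2% lower. Of 77 other genes described as proline-rich, 40 were tested, and 18 of them were higher and 12 lower with Put, so that 75.0% were called. These 40 include the 6 genes of the same description given above, with 2 higher and 3 lower. Their median log2 fold change was 0.16, also with the 1 gene at the floor in one condition set to its bound, against 8.8e-04 over all tested genes. The list is not limited to wall proteins of known function. The proteins of the DC2.15 type, small proline-rich proteins first described in carrot, made up 16 of the tested genes, with 9 higher and 5 lower. Among genes with a mean of at least 1 CPM, the largest increases were found in LOC107949081 on A04, proline-rich protein 2, with 49.6 ± 3.84 CPM with Put and 10.7 ± 0.415 CPM with CK (log2 fold change 2.22, adjusted p = 1.17e-31, edgeR), and in LOC107922117 on D01, proline-rich protein 4, with 635 ± 2.65 CPM with Put and 211 ± 2.96 CPM with CK. The largest decreases were those of the DC2.15 genes LOC107912223 on D11 (log2 fold change -4.82, but -5.93 without Put replicate 3) and LOC107924460 on A11 (-3.70). LOC107924460 had 1.67 ± 0.027 CPM with Put and 21.8 ± 0.414 CPM with CK (adjusted p = 3.21e-30).

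Extensins are rod-like wall glycoproteins rich in hydroxyproline. Of 104 genes described as extensins, which share 7 with the list above, 49 were tested, with 13 higher and 14 lower and a median log2 fold change of 0.02. The list also holds leucine-rich repeat extensins. Of those not described as pollen-specific 28 were tested, with 9 higher and 4 lower, and of the pollen-specific ones 5, with 1 higher and 1 lower. Most of the higher genes of the list were thus leucine-rich repeat extensins and most of the lower genes were not, a difference that was not tested. *Extensin-2* on D02 (LOC107941957) fell to 607 ± 3.32 CPM with Put, against 1539 ± 34.3 CPM with CK (log2 fold change -1.34, adjusted p = 2.00e-50, edgeR), whereas *extensin-2* on D05 (LOC107914116) rose to 259 ± 3.80 CPM with Put, against 101 ± 0.675 CPM with CK. The largest changes were those of LOC107902756, a leucine-rich repeat extensin on D05 (log2 fold change 2.66), and of LOC107890534, extensin-2-like on D09 (-3.07). Of 64 glycine-rich wall structural proteins 27 were tested, with 5 higher and 11 lower and a median of -0.10, and without CK replicate 3 the higher genes were 9. Among them, LOC107936232 on D02 rose to 103 ± 5.62 CPM with Put, against 42.5 ± 6.64 CPM with CK (adjusted p = 3.47e-26), and LOC107917083 on A01 had a log2 fold change of 1.04. LOC107942203 on D02 and LOC121204930 on A08 were lower, with log2 fold changes of -2.49 and -1.86.

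Prolyl 4-hydroxylases convert proline in secreted proteins to hydroxyproline. Of 50 genes 33 were tested, of which 16 were higher and 0 lower with Put. The 16 are 48.5% of those tested, against 18.4% higher and 18.2% lower over all tested genes, and this difference was not tested. At an unadjusted p under 0.05 the lower genes were likewise 0 in edgeR, and DESeq2 and limma on FPKM called 0 lower, with 14 and 15 higher. The median log2 fold change was 0.18. LOC121203192 on A09, probable prolyl 4-hydroxylase 6, had 3.33 ± 0.271 CPM with Put and 1.07 ± 0.026 CPM with CK (log2 fold change 1.63, adjusted p = 2.95e-07, edgeR), and LOC107951338 on A02, probable prolyl 4-hydroxylase 3, had a log2 fold change of 1.24. The list of hydroxyproline glycosyltransferases holds enzymes that attach arabinose or galactose to hydroxyproline. It also took in genes described as peptidyl serine alpha-galactosyltransferase, which are named for serine. Of its 40 genes 38 were tested, with 15 higher, 4 lower and a median of 0.06. Without Put replicate 3 or CK replicate 2 the lower genes were 2, as also with limma on FPKM. Galactosyltransferases of hydroxyproline had 8 higher and 2 lower of 21 tested, and arabinosyltransferases 5 higher and 2 lower of 15 tested. LOC107928113 on A06, hydroxyproline O-arabinosyltransferase RDN2, rose to 40.7 ± 1.83 CPM with Put, against 21.9 ± 2.23 CPM with CK (adjusted p = 1.78e-16), and LOC121231982 on A07 rose by 0.73 on the log2 scale. LOC121228180 on A04, a GALT4-like galactosyltransferase, fell by 0.51 (adjusted p = 0.00386). LOC107900691 on D08, an arabinosyltransferase described as XEG113, fell by 0.31 (adjusted p = 0.0111), a call that was lost without Put replicate 3 (adjusted p = 0.0549) or CK replicate 2 (adjusted p = 0.10).

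Proline itself is made by delta-1-pyrroline-5-carboxylate synthase and reductase and broken down by proline dehydrogenase. Of 18 such genes 14 were tested, with 0 higher and 6 lower and a median log2 fold change of -0.09. The 6 are 42.9% of those tested, against 36.6% called and 18.2% lower over all tested genes, and this difference was not tested. At an unadjusted p under 0.05, 1 gene was higher in edgeR, as also at the adjusted threshold without CK replicate 3, and DESeq2 and limma on FPKM called 0 higher and 5 and 4 lower. The lower genes included 4 of 5 tested genes of the synthase, of which DESeq2 called 3 and limma on FPKM 2. These were led by LOC107940896 on D01 at 1.30 ± 0.460 CPM with Put and 4.01 ± 0.713 CPM with CK (log2 fold change -1.63, adjusted p = 1.47e-07, edgeR) and LOC107899340 on D04 at 8.47 ± 1.23 CPM with Put and 19.2 ± 0.922 CPM with CK. Of 6 proline transporters 4 were tested, with 0 higher, also at an unadjusted p under 0.05 and with DESeq2 or limma on FPKM, and 2 lower. These were LOC107951563 on A10 and LOC107935476 on D10, both described as proline transporter 2, with log2 fold changes of -0.47 (adjusted p = 0.0040) and -0.41 (adjusted p = 4.41e-04).

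PERK proteins are receptor kinases whose outer part resembles proline-rich proteins and extensins. Of 50 genes 25 were tested, with 11 higher, 4 lower and a median log2 fold change of 0.22. LOC121215571 on D03, PERK12, rose to 7.28 ± 1.40 CPM with Put, against 1.70 ± 0.303 CPM with CK (4.27-fold, adjusted p = 7.75e-14, edgeR), and LOC107901237 on D06, PERK1, rose by 0.86 on the log2 scale. LOC107928805 on D01, PERK5, had a log2 fold change of -1.60, and LOC107921752 on D01, PERK2, of -0.73. A protein tyrosine kinase domain is listed for LOC107901237 and LOC107928805. No domain is listed for LOC121215571 (1074 bp) or LOC107921752 (921 bp), which are named PERK by their description alone. In each of the 8 lists a larger share was called than the 36.6% of all tested genes, from 42.9% of the proline synthesis and breakdown genes to 75.0% of the other proline-rich genes, and this difference was not tested.

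**Figure D5:**
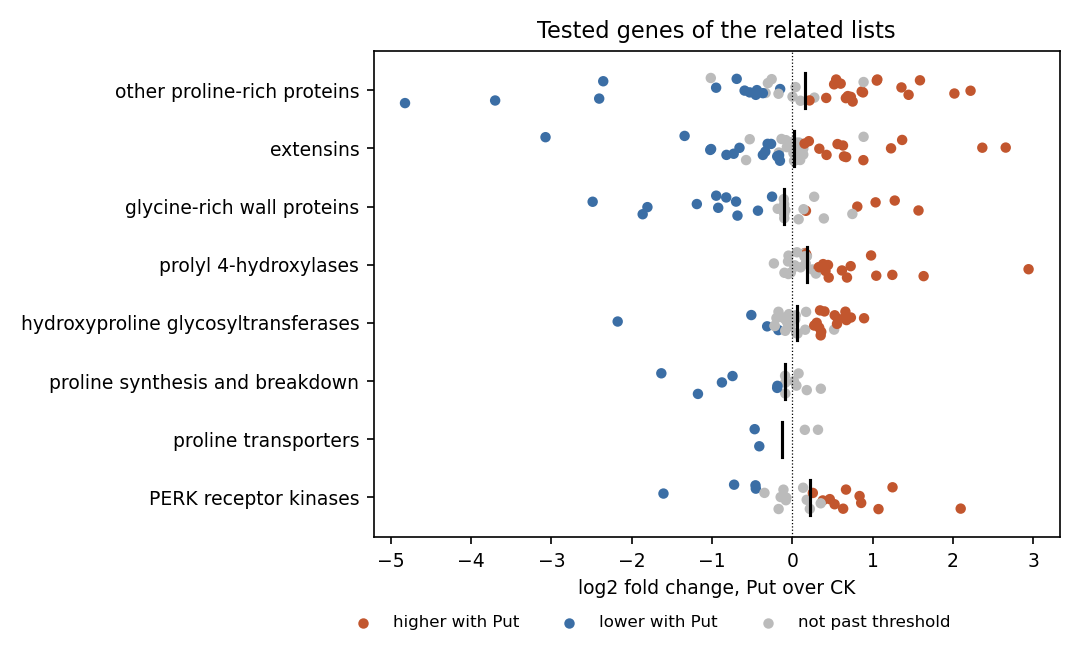
Log2 fold change of Put over CK (x axis) for every tested gene of the 8 lists (rows), coloured where the adjusted p of edgeR was under 0.05, with a vertical bar at the median of each list and random vertical placing within a row. The medians lie between -0.13 and 0.22, and no prolyl 4-hydroxylase is coloured as lower.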

How the data were processed

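Ovules of *G. hirsutum* ZM24 were profiled by RNA-seq with 3 Put and 3 CK samples. Reads were aligned with HISAT2 2.0.5 according to the submitters' processing notes, and to Gossypium_hirsutum_v2.1 according to the study. Counts were deposited by the authors as whole read pairs for each gene, not normalized. The authors also deposited FPKM, which are the counts divided by gene length and by a library size for each sample. The strand setting of the library and of the counting is not given in the sources used here.

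In R 4.3.3, edgeR 4.0.16 was run on the counts (filterByExpr, TMM, quasi-likelihood test), with p-values of 51764 tested genes adjusted after Benjamini and Hochberg. Standard errors of log2 fold changes were derived from the same fit, and CPM use its normalized library sizes. The code of the test was run on simulated counts with the same dispersion for all genes and few changed genes. As this differs from the data, it checks the code and not the calls made here. DESeq2 1.42.0, limma 3.58.1 on log2(FPKM + 1) or log2(FPKM + 0.1) at a mean FPKM of at least 0.5, other scalings, no filter, the replicate number as a block and leaving out each replicate were used as alternatives. Replicates of a condition differed by between 1.73 and 1.88 times the variance of counting, so no sample was counted as a copy of another. Floors cover counting error only.

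The members and lists were chosen with earlier results of these data known. Lists were matched to the first part of the deposited gene description. Genes were named by a rule, which took the 6 members, the other genes of the same description, up to 2 DEG with the largest and 2 with the smallest log2 fold change in each list at a mean of at least 1 CPM, the 3 nearest genes on each side of a cluster with at least 10 counts in all and those in between, and the 2 genes nearest to each member in profile. The cryptochrome-1 and EAF6 pairs were added after their values were seen. Chromosome names were taken from the RefSeq gene table of the same assembly, in which 99451 of 100562 identifiers were found.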

Additional observations from a re-analysis of the deposited data

How the results depend on the processing

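In all, 309 values were taken under another setting (counts of higher and lower genes, log2 fold changes of 5 members and shares on A02). Of these, 300 stayed within 1.5 times the count or within the spread between replicates. None of the log2 fold changes of the 5 members changed sign, while counts and shares have no sign to change. With limma on log2(FPKM + 1) or log2(FPKM + 0.1), 2 hydroxyproline glycosyltransferases were lower in place of 4. With library size alone, the log2 fold change of LOC107936247 was -1.49. In CPM, the share on A02 was 84.3% with Put and 42.9% with CK, and with LOC121203085 counted on D02, an alternative added after the data were seen, it was 81.1% with Put and 39.0% with CK of the FPKM. Without 1 replicate, the glycine-rich wall proteins had 4 to 9 higher genes, the proline synthesis and breakdown genes 0 to 1 higher and the hydroxyproline glycosyltransferases 2 to 5 lower. The higher count of the glycine-rich genes was 9 without CK replicate 3, which also gave the 1 higher proline gene, and the lower count of the glycosyltransferases was 2 without Put replicate 3 or CK replicate 2. The log2 fold change of LOC107936249 was then 1.69 to 1.73 and that of LOC107940545 -2.27 to -2.16. Among 40 other named genes, LOC107936230, which did not pass, changed sign with library size alone (-0.0164), with limma at either pseudocount (-0.0050 and -0.0078) and, over a range from -0.11 to 0.14 without 1 replicate, without Put replicate 1 (-0.11), Put replicate 2 (-0.0154) or CK replicate 3 (-0.0385), and the cause was not tested. LOC107914906 and LOC107940536 passed with limma at either pseudocount (adjusted p from 0.0078 to 0.0157) and in no other setting.

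The deviations of same-numbered Put and CK samples correlated at -0.005, -0.009 and -0.013 across genes. Taken over all tested genes, which include weakly counted ones, these values cannot decide whether such samples share a batch or culture. No source states that they do. With the replicate number as a block, 9381 genes were higher and 9280 lower, against 9509 and 9427 without it, the other proline-rich genes had 18 higher and 11 lower, and the log2 fold change of LOC107936249 was 1.71. Depth limits LOC107940537 alone among the 6 genes.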

Other observations

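The profile of each expressed member over the 6 samples was set against that of every gene with a description and a mean of at least 1 CPM, as the root-mean-square distance of log2 CPM centred on the mean of the gene. With only 2 conditions this likeness rests mostly on the size of the difference between them. Nearest to LOC107936249 were LOC107889705 on A09, described as short-chain dehydrogenase TIC 32 B, at a distance of 0.022, and LOC107931034 on D12, described as protein EXORDIUM-like 3, at 0.022. Nearest to LOC107936247 were LOC107889072 on A09, described as asparagine synthetase, at 0.021, and LOC121207986 on A10, described as early nodulin-75-like, at 0.031. Early nodulin-75 was first described in soybean nodules and is itself a repetitive proline-rich protein. LOC121207986 had 423 ± 14.7 CPM with Put and 1193 ± 20.8 CPM with CK (SD, n = 3 each), and its description is on none of the lists.

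For LOC107936248 the nearest was LOC107890534 on D09, extensin-2-like, at 0.075, with 1.17 ± 0.0755 CPM with Put and 9.91 ± 0.619 CPM with CK. The next was LOC107916194 on D10, described as major pollen allergen Bet v 1-E-like, at 0.14. Nearest to LOC107940545 were LOC107938175 on D10, 21 kDa seed protein-like, at 0.038, and LOC107930198 on A09, berberine bridge enzyme-like 18, at 0.062. LOC107940546 was nearest to LOC107913019 on D11, probable serine protease EDA2, at 0.013, and to LOC107962841 on A06, alpha-aminoadipic semialdehyde synthase, at 0.014.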
